A study of Mus musculus with 8 samples.

Results

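The 7 sirtuins of the mouse, Sirt1 to Sirt7, were examined in RNA sequencing libraries of skin epithelium that had lost MOF or KANSL1. They were taken by gene symbol from the 23432 symbols of the count tables, and all 7 were listed in every library. MOF, encoded by Kat8, is the acetyltransferase that places acetyl groups on H4K16 (lysine 16 of histone H4), and KANSL1 is the scaffold of a complex in which MOF works. Polyadenylated RNA was sequenced from 8 libraries in 4 groups of 2. At E16.5, an embryonic day, epithelial cells of back skin were sorted as K14-H2BGFP+ cells from control and MOF cKO embryos (MOFfl/fl/K14Cre). At P0.5, within a day of birth, the whole epidermis was taken from control and Kansl1 cKO pups (Kansl1fl/fl/K14Cre) after Dispase treatment. The Cre in both cKO lines is driven by the keratin 14 promoter, which is active in the basal epithelium, and other cells of the tissue are not its target. The controls were wild-type or heterozygous littermates on a mixed C57Bl/6J and CD-1 background. Whether each library came from 1 animal is not given in the labels, so the p-values measure the spread between these libraries.

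Sirtuins remove acetyl or longer acyl groups from lysines and consume NAD+ in each reaction, which ties their activity to the metabolic state of the cell. SIRT1, SIRT6 and SIRT7 are mainly nuclear, SIRT2 is mainly cytosolic, and SIRT3, SIRT4 and SIRT5 are mitochondrial. SIRT1 and SIRT2 can remove the acetyl group from H4K16 that MOF places, and SIRT3 is the main deacetylase of the mitochondrial matrix. All values below are levels of mRNA. In bulk RNA, fewer cells of a type and less RNA per cell cannot be told apart.

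The counts on genes ranged from 9108709 to 27561688 per library, and the shallowest library was replicate 1 of the P0.5 controls. At these depths 1 read stood for 0.0326 to 0.115 CPM, the number of reads per 1000000 after scaling with TMM factors. The targeted genes are no firm check of the labels here. Kat8 had 443 and 408 reads in the E16.5 controls and 248 and 329 in MOF cKO (log2 fold change -0.14, SE 0.179, adjusted p = 0.554 in edgeR's quasi-likelihood test). Kansl1 had 355 and 745 reads in the P0.5 controls and 649 and 387 in Kansl1 cKO (log2 fold change -0.52, SE 0.167, adjusted p = 0.242 in the same edgeR test). Counts over a whole gene need not follow the loss of single exons, and the exons removed were not counted apart. The study itself reports loss of the targeted Kansl1 exon in its RNA sequencing, and strongly reduced H4K16ac staining in MOF cKO epidermis at E16.5. The keratinocyte list had 9 of 10 markers listed, and its summed level was 33650 to 85030 CPM in the 8 libraries. Of its 9 members tested, 6 were higher in MOF cKO. Among these, 3 suprabasal markers were called higher, and 0 members were called lower. Krt1 was at 1549 and 1255 CPM in the E16.5 controls and 4227 and 4691 in MOF cKO, Krt10 at 2253 and 1813 against 4177 and 4660, and Ivl at 0.359 and 0.722 against 10.8 and 9.82. In the P0.5 controls Krt1 was at 35390 and 18080 CPM. Of the basal markers, Trp63 was at 708.2 and 632.4 CPM in the E16.5 controls and 483.8 and 417.4 in MOF cKO. Krt5 and Itga6 overlapped between these groups, while Krt14 and Itgb4 lay above the controls. In stained skin the study reports thinner spinous and granular layers in MOF cKO at E16.5. Its single-cell RNA data, which compare suprabasal cells alone, list Krt1 and Krt10 as lower in MOF cKO. The macrophage list held 20.94 and 46.43 CPM in the E16.5 controls and 113.7 and 143.7 CPM in MOF cKO, with 14 of 14 markers higher and 8 called. The melanocyte list held 464.4 and 517 CPM in the P0.5 controls and 994.4 and 1121 CPM in Kansl1 cKO, with 6 of 6 markers higher and none called. Muscle markers summed to 240.4 CPM in replicate 1 of the P0.5 controls and to at most 4.138 CPM in the other P0.5 libraries. Dermal fibroblast markers summed to 1155 and 1811 CPM in the E16.5 controls and 1742 and 2366 in MOF cKO, with 6 of 8 higher. At P0.5 they summed to 1844 and 1184 CPM in the controls and 1055 and 840.9 in Kansl1 cKO, with 2 of 8 higher. No fibroblast marker was called in either cKO. Endothelial markers held 6.49 and 7.473 CPM in the E16.5 controls and 11.85 and 23.67 in MOF cKO, with 6 of 6 higher and 1 called. Transcripts of the sexes were uneven too. Xist was at 1518 CPM in replicate 1 of the E16.5 controls and at most 12 CPM in the other E16.5 libraries. It was at 1.23 CPM in replicate 2 of the P0.5 controls and at least 371 CPM in the other P0.5 libraries. The part of these differences in the sirtuin results was not tested.

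Promoter windows are printed first for Sirt3, Sirt5 and Sirt2, the 3 members with the lowest fold changes in MOF cKO, and for Sirt1, which lay above its controls in both mutants. Each window runs from 250 bases before to 50 bases after a RefSeq start, on the gene's own strand, 5′ to 3′, in build GRCm38.p6. Capitals mark matches on either strand to GGGCGG (the GC box of Sp1), CCAAT (bound by NF-Y), CCGGAA (the core of ETS sites), GCGCATGC (part of the NRF1 site), CACGTG (the E-box), GTTGCC (part of the RFX site) or TATAAA.

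Sirt3, chr7:140882260-140882559, minus strand, start shared with the Psmd13 promoter: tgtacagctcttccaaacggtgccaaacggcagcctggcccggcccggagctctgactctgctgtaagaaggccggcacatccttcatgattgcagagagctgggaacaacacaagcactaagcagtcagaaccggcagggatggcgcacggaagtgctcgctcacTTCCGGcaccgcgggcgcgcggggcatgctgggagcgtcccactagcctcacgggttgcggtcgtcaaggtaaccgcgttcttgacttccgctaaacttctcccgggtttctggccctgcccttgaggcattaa
Sirt3, chr7:140881820-140882119, minus strand, second start: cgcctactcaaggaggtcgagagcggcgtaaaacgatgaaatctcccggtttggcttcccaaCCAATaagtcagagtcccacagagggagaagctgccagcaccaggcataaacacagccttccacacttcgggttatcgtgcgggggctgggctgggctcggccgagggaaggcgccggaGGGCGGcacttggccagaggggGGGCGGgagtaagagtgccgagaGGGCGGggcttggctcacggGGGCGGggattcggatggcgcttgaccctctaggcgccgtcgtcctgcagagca
Sirt2, chr7:28766502-28766801, plus strand: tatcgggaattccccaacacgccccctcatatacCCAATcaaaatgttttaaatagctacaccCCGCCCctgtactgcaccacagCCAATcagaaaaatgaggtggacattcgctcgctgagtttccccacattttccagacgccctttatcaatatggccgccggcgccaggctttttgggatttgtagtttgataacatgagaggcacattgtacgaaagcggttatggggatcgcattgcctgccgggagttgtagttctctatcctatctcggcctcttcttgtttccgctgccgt
Sirt5, chr13:43365285-43365584, plus strand: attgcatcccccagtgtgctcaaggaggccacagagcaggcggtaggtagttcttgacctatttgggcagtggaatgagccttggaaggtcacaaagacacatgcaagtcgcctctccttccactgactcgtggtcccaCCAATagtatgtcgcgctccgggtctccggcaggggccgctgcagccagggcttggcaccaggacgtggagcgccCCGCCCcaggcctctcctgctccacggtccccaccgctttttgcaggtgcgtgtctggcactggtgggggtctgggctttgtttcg
Sirt1, chr10:63338986-63339285, minus strand: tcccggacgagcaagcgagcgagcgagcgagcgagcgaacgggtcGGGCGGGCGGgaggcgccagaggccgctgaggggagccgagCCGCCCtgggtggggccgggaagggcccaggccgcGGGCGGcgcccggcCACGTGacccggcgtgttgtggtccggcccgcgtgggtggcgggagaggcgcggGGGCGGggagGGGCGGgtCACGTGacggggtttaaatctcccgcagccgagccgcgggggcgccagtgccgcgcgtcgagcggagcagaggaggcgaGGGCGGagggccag

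RefSeq listed 9 windows for the 7 sirtuins, since Sirt3 and Sirt6 each had 2 starts. TATAAA and GTTGCC were found in 0 of the 9, against 13.6% and 12.5% of all 32817 promoter windows of that length. GGGCGG was found in 6 of the 9 (35.6% of all windows), CCGGAA in 4 (14.9%), CCAAT in 3 (37.4%), GCGCATGC in 2 (2.71%) and CACGTG in 1 (7.15%). The window of Sirt1 was the most GC-rich of the 9, with 79% G and C, and that of Sirt2 the least, with 50% (the median of all windows was 52.7%). The ratio of observed to expected CpG (a C followed by a G) ran from 0.52 in Sirt5 to 1.09 in Sirt1. Its median over all windows was 0.383, and the 2 windows of Sirt6 overlap. The part of base composition in these shares was not tested. A match is a run of letters and not a measured site, and a missing match does not show that a factor is absent. In newborn epidermal cells the study reports binding of both MOF and RFX2 at the promoter that Sirt3 shares with Psmd13. A pair of windows held a second gene's start as well. The first start of Sirt3 lay 85 bp from that of Psmd13, a proteasome subunit gene on the opposite strand, and Sirt2 started 108 bp from Nfkbib, an inhibitor of NF-kB, on the opposite strand too.

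In MOF cKO at E16.5, Sirt3 and Sirt2 were downregulated, the mitochondrial Sirt5 had a lower level that did not pass the threshold, and the nuclear Sirt6 and Sirt7 lay above the controls without a call. Calls needed both a Benjamini-Hochberg adjusted p of at most 0.01 in edgeR's quasi-likelihood test and more than 1.5-fold. Thus 2 of 7 sirtuins were called lower, against 9.59% of the 13956 genes tested, and 0 of 7 higher, against 10%. DESeq2 called none higher either, and Sirt6 and Sirt7 had unadjusted p of 0.00669 and 0.0162 in edgeR. The median log2 fold change of the 7 sirtuins was -0.15 and that of all genes was -0.02.

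**Figure D1:**
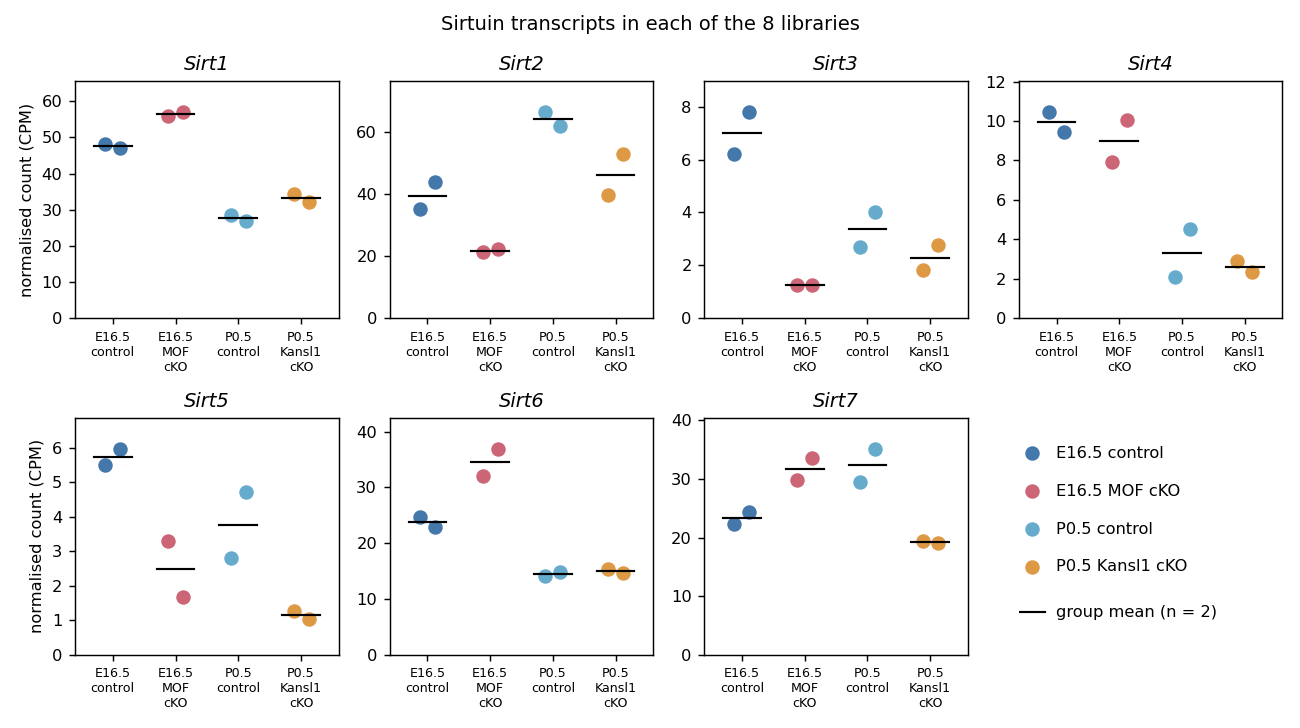
TMM-scaled CPM (vertical axis from 0, scaled over all 8 libraries) of each sirtuin in each library. Points are libraries, coloured by group, and the black lines are the means of 2 libraries. Sirt3 was at 1.25 CPM in both MOF cKO libraries and at 6.2 and 7.81 CPM in their controls.

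Among the mitochondrial members, Sirt3 had 207 and 234 reads in the controls and 27 and 32 in MOF cKO. Its level went from 7.60 ± 1.2 CPM (SD, n = 2) to 1.355 CPM in each cKO library, a 5.59-fold fall. The log2 fold change was -2.48 (SE 0.353, adjusted p = 0.00203 in edgeR's quasi-likelihood test). Both cKO libraries lay far below both controls, and the call held in each alternative fit, with each library left out in turn included. Sirt5, which removes succinyl, malonyl and glutaryl groups, had 184 and 179 reads in the controls against 71 and 43. It went from 6.23 ± 0.326 to 2.69 ± 1.23 CPM (SD, n = 2; log2 fold change -1.22, SE 0.407, adjusted p = 0.0496 in the same edgeR test). The cKO libraries were both lower but differed from each other by more than the controls did. Sirt5 was called when the replicate number was a block (adjusted p = 0.00706 in edgeR) or when every gene with a read was kept (adjusted p = 0.00959 in edgeR). Sirt4, a mitochondrial lipoamidase, had 349 and 282 reads in the controls and 171 and 257 in MOF cKO, and its scaled levels overlapped between the groups. Its log2 fold change was -0.15 with a 95% interval of -0.68 to 0.38.

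Sirt2, which removes acetyl groups from tubulin and from H4K16, had 1172 and 1312 reads in the controls and 458 and 566 in MOF cKO. It went from 42.8 ± 6.46 to 23.5 ± 0.692 CPM (SD, n = 2), a 1.82-fold fall (log2 fold change -0.87, SE 0.153, adjusted p = 0.0047 in edgeR's quasi-likelihood test). The groups did not overlap, but the call rested on single libraries. Without control replicate 2 the log2 fold change was -0.70 (adjusted p = 0.0145 in edgeR), and without MOF cKO replicate 1 it was -0.84 (adjusted p = 0.0122 in edgeR).

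The nuclear members lay on the other side. Sirt6, which acts on histone H3 at chromatin and in DNA repair, went from 25.9 ± 1.49 to 37.4 ± 3.76 CPM (SD, n = 2; 825 and 687 against 693 and 947 reads). Its log2 fold change was 0.54 (SE 0.143, adjusted p = 0.0226 in edgeR's quasi-likelihood test), below the 1.5-fold limit. Sirt7, a nucleolar deacetylase, had 747 and 731 reads against 645 and 861, which are 25.4 ± 1.43 and 34.4 ± 2.89 CPM (SD, n = 2). Its log2 fold change was 0.44 (SE 0.142, adjusted p = 0.0438 in the same edgeR test). Sirt1, which acts on p53 and FOXO factors as well as on histones, had 51.6 ± 1.14 CPM in the controls and 61.3 ± 0.864 in MOF cKO (SD, n = 2; 1608 and 1408 against 1209 and 1462 reads). Its log2 fold change was 0.25 (SE 0.111, adjusted p = 0.118 in edgeR). Both cKO libraries lay above both controls for each of these 3 genes, which was so for 34.9% of all genes tested, and below them for Sirt2, Sirt3 and Sirt5, which was so for 37.7%. With library size alone in place of TMM, the median of all genes moved to -0.32 and the log2 fold change of Sirt1 turned to -0.057, while Sirt6 and Sirt7 kept their sign at 0.23 and 0.14.

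**Figure D2:**
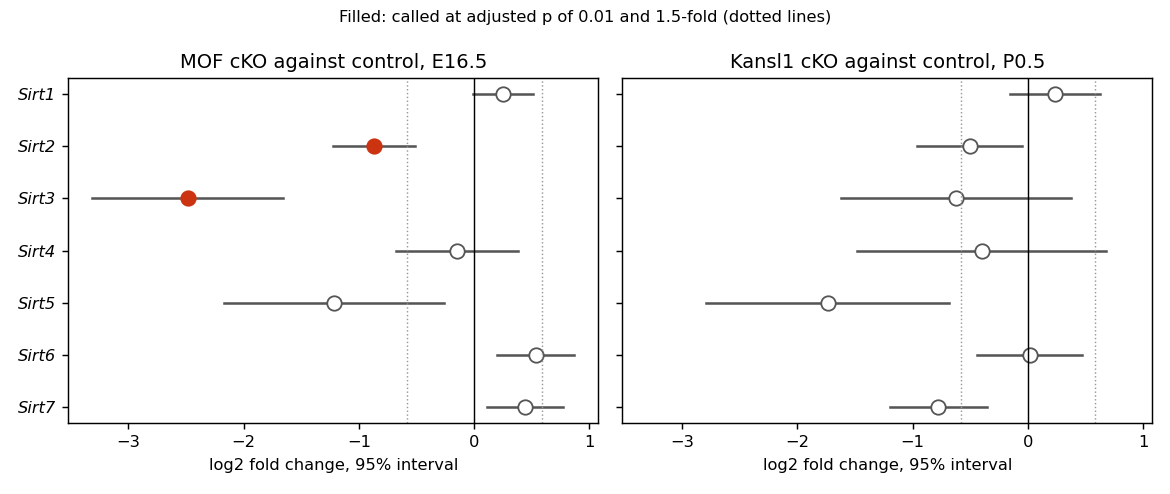
Log2 fold change (horizontal axis) of each sirtuin in MOF cKO at E16.5, left, and in Kansl1 cKO at P0.5, right, each against its own 2 controls. Bars are 95% intervals of single genes, dotted lines mark 1.5-fold, and the filled points, Sirt2 and Sirt3 in MOF cKO, are the calls.

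The 7 sirtuins together held 152.5 and 161.4 CPM in the controls and 151.7 and 162.7 CPM in MOF cKO, on the scale shared by all 8 libraries. At P0.5 they held 146.3 and 152.2 CPM in the controls and 114.7 and 125 CPM in Kansl1 cKO.

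In Kansl1 cKO at P0.5, no sirtuin was called in either direction. By edgeR's quasi-likelihood test 0 of the 13031 genes tested passed, that is 0% lower and 0% higher, and the smallest adjusted p of any gene was 0.11. DESeq2 called 0.506% of genes lower and 0.269% higher, and no sirtuin among them. At an unadjusted p under 0.05, 3 sirtuins were lower (Sirt7, Sirt5 and Sirt2) and 0 higher, against 8.26% and 7.43% of all genes. The median log2 fold change of the sirtuins was -0.51 and that of all genes 0.01.

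The lowest p among them was that of Sirt7, with 241 and 506 reads in the controls and 365 and 221 in Kansl1 cKO. Scaled to depth, these were 27.6 and 32.7 CPM in the controls and 17.7 and 17.5 CPM after loss of KANSL1. Its log2 fold change was -0.78 (SE 0.177, adjusted p = 0.197 in edgeR's quasi-likelihood test, 0.0775 in DESeq2). The 2 Kansl1 cKO libraries were alike and both lay below both controls. Sirt5 had 23 and 68 reads in the controls and 24 and 12 in Kansl1 cKO, or 3.52 ± 1.25 against 1.06 ± 0.151 CPM (SD, n = 2). Its log2 fold change of -1.74 was the largest of the family (SE 0.442, adjusted p = 0.204 in edgeR's test, 0.106 in DESeq2), on few reads. Sirt2 went from 59.9 ± 3.26 to 42.2 ± 8.81 CPM (SD, n = 2; log2 fold change -0.51, SE 0.19, adjusted p = 0.284 in edgeR), with both cKO libraries below both controls. For these 3 genes the groups did not overlap, which was so in the lower direction for 22.7% of all genes.

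Sirt3, the largest fall in MOF cKO, had 22 and 58 reads in the P0.5 controls and 34 and 32 in Kansl1 cKO. Its scaled levels overlapped, since 1 control library had 2.521 CPM and 1 cKO library 2.529 CPM. The log2 fold change was -0.63, with a 95% interval of -1.62 to 0.37. Sirt4 also overlapped, with 1.95 and 4.20 CPM against 2.62 and 2.13 CPM. Sirt6 was at 13.5 ± 0.339 CPM in the controls and 13.7 ± 0.363 CPM in Kansl1 cKO (SD, n = 2). The 95% interval of its log2 fold change, 0.02, ran from -0.44 to 0.47. Sirt1 was at 26.0 ± 1.22 and 30.4 ± 1.28 CPM (SD, n = 2; log2 fold change 0.23, adjusted p = 0.533 in edgeR), and both cKO libraries lay above both controls, as for 26% of all genes. Without the control library that held muscle transcripts, the log2 fold changes of Sirt7, Sirt5 and Sirt3 were -0.90, -2.03 and -0.87.

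Whether a sirtuin responded differently to the loss of MOF and of KANSL1 was tested as the difference of both log2 fold changes in a fit over all 8 libraries. No member was called, against 1.17% of 14565 genes called lower and 1.76% called higher. By unadjusted p in edgeR, Sirt7 (0.000502) and Sirt3 (0.00684) ranked 555 and 2000 among those genes. Sirt7 came nearest, since its level lay above the controls in MOF cKO and below them in Kansl1 cKO. The difference was 1.19 (SE 0.229, adjusted p = 0.0131 in edgeR's quasi-likelihood test), and DESeq2, which called 6.7% of genes higher, called it (adjusted p = 0.000245). For Sirt3 the difference was -1.89 (SE 0.546, adjusted p = 0.0498 in edgeR, 0.0483 in DESeq2). The effects on Sirt2 were not shown to differ (difference -0.39, 95% interval -0.96 to 0.18), nor were those on Sirt5 (0.49, interval -0.92 to 1.90). The experiments also differed in stage and isolation, so a difference between the genes deleted cannot be told apart from these.

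The control groups differed from each other in several members. At P0.5, Sirt1, Sirt4 and Sirt6 were called lower than at E16.5, 3 of 7 members against 20.6% of all genes, and Sirt2 was called higher, 1 of 7 against 19.6%. On the shared scale Sirt1 was at 47.6 ± 0.816 and 27.8 ± 1.16 CPM (SD, n = 2; log2 fold change -0.78, adjusted p = 0.000989 in edgeR's quasi-likelihood test). Sirt6 was at 23.8 ± 1.25 and 14.5 ± 0.439 CPM (log2 fold change -0.72, adjusted p = 0.00497 in edgeR). DESeq2 did not call Sirt6 (adjusted p = 0.0172). Sirt4 had 349 and 282 reads at E16.5 and 17 and 65 at P0.5 (log2 fold change -1.54, adjusted p = 0.00506 in edgeR). Sirt2 went the other way, from 39.5 ± 6.15 to 64.2 ± 3.16 CPM (log2 fold change 0.70, adjusted p = 0.00816 in edgeR). Stage and isolation change together here and cannot be told apart, and the 4 calls were among the least stable. Without either E16.5 control library none of the 3 falls was called, and Sirt2 was not called without E16.5 control replicate 1, MOF cKO replicate 1 or either P0.5 control. Sirt3 (log2 fold change -1.04, adjusted p = 0.0381), Sirt7 (0.47, adjusted p = 0.0316) and Sirt5 (-0.59, adjusted p = 0.264) did not pass the threshold in edgeR's test. DESeq2 called Sirt7 higher (adjusted p = 0.00799).

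Levels of different genes were compared per kilobase of annotated exon. In the E16.5 controls Sirt1, Sirt6 and Sirt2 led, with 8.93 ± 0.153, 8.56 ± 0.45 and 7.84 ± 1.22 CPM per kb (SD, n = 2), and their libraries overlapped from each to the next. Sirt7 and Sirt4 followed with 4.54 and 4.14 CPM per kb, with libraries that overlapped by a narrow margin. Sirt3 and Sirt5 were lowest, with 1.17 ± 0.191 and 0.943 ± 0.054 CPM per kb, and their libraries did not overlap. In MOF cKO Sirt6 led with 12.4 CPM per kb, Sirt2 came after Sirt1 and Sirt7 with 4.30, and Sirt3 was last with 0.209. No neighbours in that order overlapped. At P0.5 Sirt2 led in both groups, with 12.8 CPM per kb in controls and 9.18 in Kansl1 cKO. In the P0.5 controls Sirt1 and Sirt6 overlapped, as did Sirt5 and Sirt3, and in Kansl1 cKO no neighbours did. Sirt3 and Sirt5 were the lowest members in all 4 groups. With the longest transcript in place of all exons, 10 of the 28 ranks moved. Sirt2 then led in the E16.5 controls, and Sirt5 (2.37 CPM per kb) came above Sirt3 (2.19). In MOF cKO Sirt2 (10.2) came above Sirt7 (9.7), and at P0.5 Sirt1 and Sirt6 changed places in both groups. The order among these members thus depends on the length used, while Sirt3 and Sirt5 stayed the lowest in all 4 groups.

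**Figure D3:**
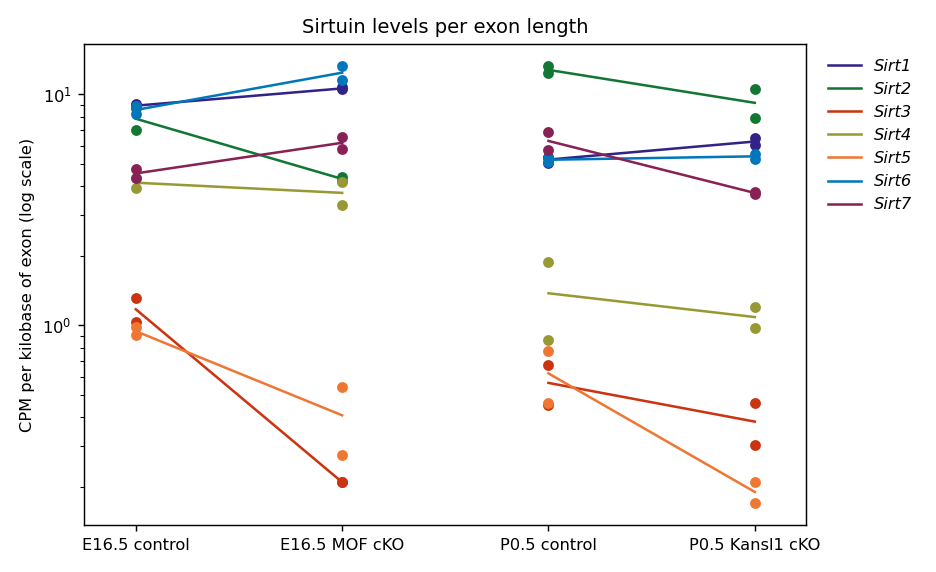
CPM per kilobase of exon (vertical axis, log scale) of each sirtuin in the 4 groups. Points are libraries and lines join the means of each cKO to its own controls. Sirt3 and Sirt5 lay at 1.31 CPM per kb or lower in every library, and Sirt3 fell to 0.209 in MOF cKO.

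The genes that face a sirtuin across a shared promoter region were read in the same comparisons (GENCODE M21, build mm10). Sirt3 lies on chr7:140863666-140882309, minus strand, and 342 bp of its exons, 5.73% of their length, overlap exons of Psmd13 on the plus strand. The strand setting of the counting is not given in the sources used here, so reads in that stretch may have been assigned to either gene or to neither. In MOF cKO Psmd13 had 99.7 ± 3.28 CPM in the controls and 75.2 ± 7.75 CPM (SD, n = 2; log2 fold change -0.41, SE 0.12, adjusted p = 0.0322 in edgeR's quasi-likelihood test). Sirt3 thus fell 5.59-fold while Psmd13, about 85 bp from its start, was 1.33-fold lower and not called. The study lists both genes as downregulated in MOF cKO. Here both cKO libraries of Psmd13 lay below both controls, as for 37.7% of all genes. Sirt2 (chr7:28766735-28788661, plus strand) faces Nfkbib, whose libraries overlapped between the groups, with 799 and 805 reads against 463 and 1055. Sirt6 (chr10:81621785-81627797, minus strand) was 1.45-fold higher in MOF cKO without a call, and Ankrd24, an ankyrin repeat gene that starts 743 bp away, was called 3.27-fold lower (8.47 ± 0.632 to 2.58 ± 0.665 CPM; adjusted p = 0.00641 in edgeR). Sirt1 (chr10:63319005-63381704, minus strand) faces Dnajc12 by its upstream GENCODE start alone, and Dnajc12 overlapped between the groups at 1.95 and 1.32 CPM on average. In Kansl1 cKO none of these 4 neighbours was called, and Psmd13 had a log2 fold change of -0.51 (adjusted p = 0.258 in edgeR). Sirt4 lies on chr5:115478010-115484725 (minus strand), Sirt5 on chr13:43365496-43395203 (plus strand) and Sirt7 on chr11:120618372-120625240 (minus strand). None of these 3 had such a neighbour within 1000 bp, and 124 bp of the Sirt7 exons overlap Mafg on the same strand.

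Sirtuins draw on NAD+, and 5 gene lists that border on them were counted in the same fits. Of 13 tested genes of NAD synthesis and recycling, 1 was called lower in MOF cKO and 0 higher (9.59% and 10% of all genes), with a median log2 fold change of -0.46. The called gene was Nadsyn1, the last enzyme of the de novo and Preiss-Handler routes, with 246 and 256 reads in the controls and 32 and 39 in MOF cKO. It fell 5.28-fold (log2 fold change -2.40, SE 0.322, adjusted p = 0.00165 in edgeR's quasi-likelihood test), close in size to Sirt3. Unlike that of Sirt3, the call of Nadsyn1 was lost in 1 fit over all 8 libraries. Of 6 tested NAD consumers and clearance genes, Parp2, a DNA repair polymerase, fell from 47.9 ± 1.86 to 25.1 ± 1.09 CPM (SD, n = 2), and Parp3 rose from 1.10 ± 0.0789 to 5.57 ± 0.993 CPM. The log2 fold changes were -0.93 and 2.34 (adjusted p = 0.00179 and 0.00477 in edgeR), and Parp3 was not called without MOF cKO replicate 1.

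The zinc-dependent histone deacetylases, which need no NAD+, had 3 of 11 members called lower and 1 higher in MOF cKO (9.59% and 10% of all genes). Hdac8 fell 6.49-fold, from 437 and 426 reads to 55 and 43 (log2 fold change -2.70, adjusted p = 0.000784 in edgeR's quasi-likelihood test). Hdac10, a polyamine deacetylase, and Hdac11, a defatty-acylase, had log2 fold changes of -1.65 and -1.49 (adjusted p = 0.00429 and 0.000698 in edgeR). Hdac6, which like SIRT2 acts on tubulin in the cytosol, rose from 76.4 ± 10.4 to 124 ± 16.2 CPM (SD, n = 2; log2 fold change 0.70, adjusted p = 0.00864 in edgeR), but it was not called in 5 of 12 other fits, those without control replicate 1 or MOF cKO replicate 2 among them. Sirt2 and Hdac6 thus lay on opposite sides of their controls.

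Of 17 tested nuclear and cytosolic substrates and partners of sirtuins, 4 were called higher and 1 lower in MOF cKO, against 10% and 9.59% of all genes (median log2 fold change 0.05). Trp53, the gene of p53, rose 2.17-fold, from 273 ± 1.44 to 594 ± 0.809 CPM (SD, n = 2; adjusted p = 0.00049 in edgeR). Hif1a (0.83), the AMPK kinase gene Stk11 (0.74) and the NF-kB subunit gene Rela (0.70) rose on the log2 scale, though none of the 3 was called with library size alone, nor Hif1a without MOF cKO replicate 1, and the forkhead factor gene Foxo4 fell by 0.94. With library size alone 1 was called higher and 4 lower, so the balance of this list depends on the scaling. Of 21 tested mitochondrial substrates, 2 were called lower and 1 higher, which is near the 9.59% and 10% of all genes (median log2 fold change 0.09). Aldh2, an aldehyde dehydrogenase, fell from 288 ± 7.12 to 144 ± 9.95 CPM (SD, n = 2; adjusted p = 0.000773 in edgeR's quasi-likelihood test). Acadvl, which opens the oxidation of very long fatty acids, fell by 0.71 on the log2 scale and was not called without E16.5 control replicate 1 or MOF cKO replicate 2. Acadl, the gene of long-chain acyl-CoA dehydrogenase, a protein target of SIRT3, rose from 16.4 ± 1.74 to 35.3 ± 1.11 CPM (SD, n = 2; log2 fold change 1.10, adjusted p = 0.00178 in edgeR).

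**Figure D4:**
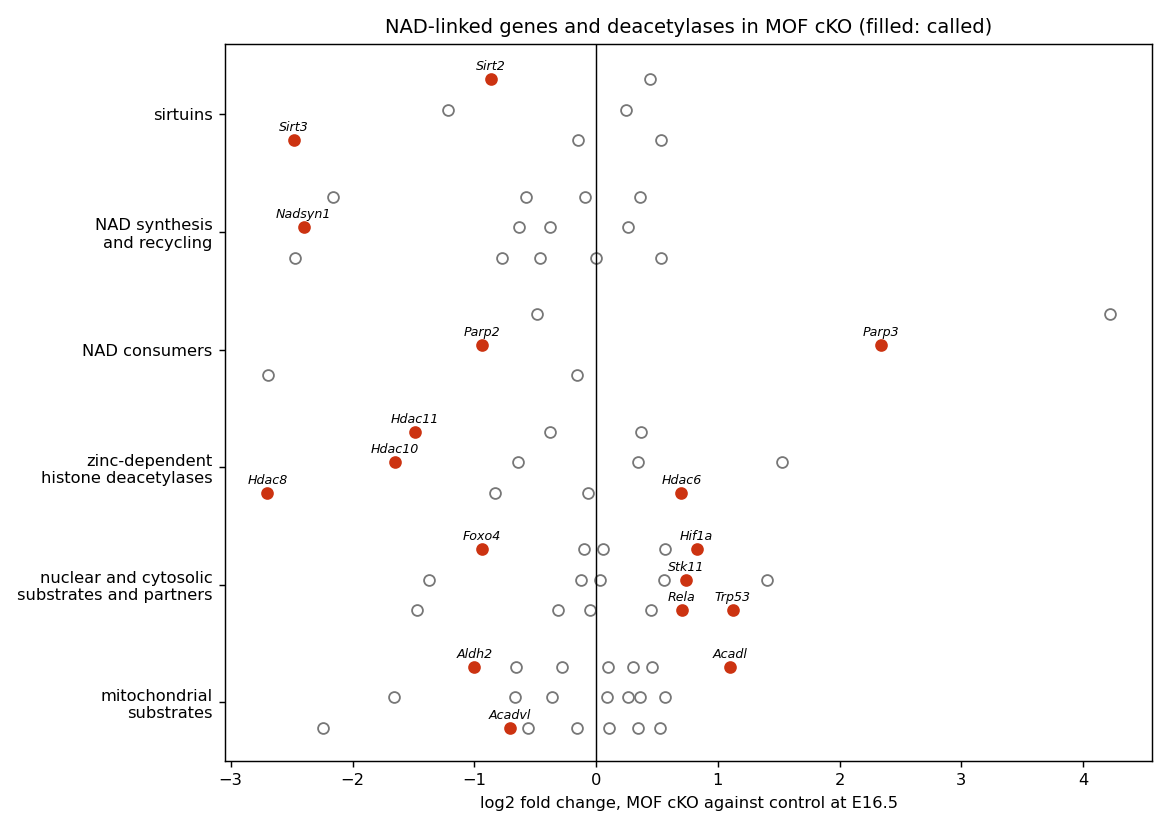
Log2 fold change in MOF cKO against control at E16.5 (horizontal axis) of every tested gene of the sirtuin family and of 5 gene lists. Filled and named points are called. Sirt3 (-2.48), Nadsyn1 (-2.40) and Hdac8 (-2.70) lie furthest to the left among the called genes.

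In Kansl1 cKO, 0 genes of these 5 lists were called by edgeR or by DESeq2, and 16 of 64 had an unadjusted p under 0.05 (8.26% of all genes lower and 7.43% higher). The lowest unadjusted p of each list belonged to Nmnat2, Parp2, Hdac10, Tubb5 and Mlycd, in the order of the lists. Nmnat2, a gene of NAD synthesis, had a log2 fold change of 1.47 (adjusted p = 0.18 in edgeR). Those of Parp2 and Hdac10 were -0.66 and -0.95 (adjusted p = 0.236 and 0.208 in edgeR). The tubulin gene Tubb5 was at 0.72 and Mlycd, malonyl-CoA decarboxylase, at -1.42 (adjusted p = 0.298 and 0.183 in edgeR). The differences between the MOF and Kansl1 effects were called for Hdac11 (-2.02) and Acadl (1.65), each with an adjusted p of 0.00553 in edgeR (1.17% of all genes lower and 1.76% higher). Both calls were lost with the replicate block and without any 1 of the E16.5 libraries, P0.5 control replicate 1 or Kansl1 cKO replicate 1, and that of Acadl also without Kansl1 cKO replicate 2. At P0.5 against E16.5 in the controls, the nuclear and cytosolic list had 8 of 17 members called lower and 0 higher (20.6% and 19.6% of all genes), with Trp53 at -1.63 on the log2 scale. Of the mitochondrial list 2 of 21 were called lower and 3 higher, at or below those shares, with Acadl at 2.02. Sirt3 lay lower at P0.5 without a call. In Kansl1 cKO the log2 fold changes of Sirt3 and Acadl were -0.625 and -0.585, neither called. A link between the mRNA levels of these genes was not tested.

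Across the 8 libraries, the genes most like Sirt3 were Clcn4-2 (Pearson r = 0.986 of log2 CPM), Adck2 (0.985), Coq4 (0.984), Ankrd27 (0.982) and Mib2 (0.981), out of 12528 genes compared. The correlations are over 8 libraries that share depth and group, and they are given as a description. Coq4, which takes part in coenzyme Q synthesis, was at 17.1 and 19.8 CPM in the E16.5 controls, 5.17 and 4.45 in MOF cKO, 9.28 and 11.9 in the P0.5 controls and 6.10 and 8.54 in Kansl1 cKO. Within the family, log2 CPM of Sirt1 and Sirt6 went together (r = 0.963), and Sirt2 ran against both (-0.916 and -0.919). The value for Sirt3 and Sirt5 was 0.67.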

How the data were processed

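Polyadenylated RNA of 2 libraries in each of 4 groups was sequenced with a directional kit. The authors deposited the counts of reads on each gene from HTSeq, without normalization. The aligner is TopHat2 in the submitters' processing notes and HISAT2 in the study's methods, on mm10, and the annotation is not given in the sources used here. Entries that name no gene held 21.1 to 26% of reads and were left out. In R 4.3.3, edgeR 4.0.16 filtered genes by filterByExpr, scaled libraries by TMM and gave the quasi-likelihood test ( Benjamini-Hochberg adjustment over all genes tested). Each cKO was fitted with its own controls, and the stage contrast and the difference of both effects in 1 fit over 8 libraries. Calls needed an adjusted p of 0.01 or lower and over 1.5-fold. DESeq2 1.42.0, other scalings, filters, thresholds, the replicate number as a block and leaving out each library were alternatives. The scripts were tested on simulated data. GENCODE M21 matched 92.9% of symbols, all sirtuins included, and promoter sequences are from RefSeq. Beside the sirtuins, the targeted genes and the facing genes within 1000 bp, list genes were named by calls (up to 5 a list by size, or up to 2 with the lowest p), and the 5 genes most like the sirtuin with the lowest adjusted p in MOF cKO by Pearson's r of log2 CPM (prior count 2). The members and lists were chosen with earlier results of these data known. In each group the counts of the 2 libraries differed by more than sampling noise. The result of 1 gene of the lists is not reported here.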

Additional observations from a re-analysis of the deposited data

Results flagged for a closer look

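Sirt7 lay above both controls in both MOF cKO libraries (32.4 and 36.5 CPM against 24.4 and 26.4) and below both controls in both Kansl1 cKO libraries (17.7 and 17.5 CPM against 27.6 and 32.7). Of all genes tested, 34.9% lay above both controls in MOF cKO and 22.7% below both in Kansl1 cKO. The difference of the log2 fold changes was 1.19 (SE 0.229), tested by edgeR in 1 fit over all 8 libraries (adjusted p = 0.0131). It passed the threshold of 0.01 in DESeq2, with RLE factors, with every gene that had a read and with crossed replicate numbers, and not in the other fits. Of all genes, DESeq2 called 6.7% higher in this contrast. The same opposite sides were seen in no other sirtuin.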

How the results depend on the processing

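Of the sirtuins called lower in MOF cKO, Sirt3 was called in each alternative and Sirt2 was not called without E16.5 control replicate 2 or MOF cKO replicate 1, so the count ranged from 1 to 2 when 1 library was left out. Leaving out a library leaves a group with 1, which is assumed to vary like the others. With the replicate number as a block, 3 sirtuins were called lower in MOF cKO, and the calls over all genes went from 1338 lower and 1395 higher to 2263 and 1903. With library size alone they were 2743 lower and 769 higher, and for P0.5 against E16.5 controls they moved from 2997 lower and 2854 higher to 4375 and 2144. The labels do not say what a number shares. The deviations of same-numbered libraries correlated at 0.23 at E16.5 and at -0.20 at P0.5, over 2 pairs each. Crossing the Kansl1 cKO numbers, chosen after seeing the data, called 1 gene lower and 0 higher over all genes in Kansl1 cKO and 0 sirtuins. No alternative called a sirtuin in Kansl1 cKO. Over all genes the Kansl1 calls ranged from 4 to 197 lower and 0 to 76 higher when 1 library was left out, with 117 lower and 73 higher when every gene with a read was kept.

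For P0.5 against E16.5 controls, the replicate block left 1 sirtuin called lower and 0 higher. The higher count was 2 with DESeq2 and with RLE factors and 0 with library size alone. Leaving out a library gave 0 to 3 lower and 0 to 1 higher. For the difference of both effects, 1 sirtuin was called higher with DESeq2, RLE factors, every gene with a read, crossed numbers and an adjusted p of 0.05, which also called 1 lower. For the difference of both effects the replicate block left 0 genes called lower and 1 higher of all genes, against 170 and 256.

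Signs turned for log2 fold changes near 0. In MOF cKO they were -0.057 for Sirt1 and -0.17 for Kansl1 with library size alone. When 1 library was left out, they ran from -0.33 to 0.009 for Sirt4 and from -0.25 to 0.69 for Nfkbib. In Kansl1 cKO, Sirt6 was at -0.035 with upper-quartile factors, -0.036 with library size alone and -0.025 with at least 10 counts. With 1 library left out, it ran from -0.047 to 0.046 and Sirt4 from -0.81 to 0.26. The difference of both effects for Sirt1 was 0.084 with DESeq2, 0.086 with RLE, 0.008 with upper-quartile factors and 0.11 with every gene kept. With 1 library left out it ran from -0.071 to 0.11 for Sirt1, from -0.49 to 0.63 for Sirt4 and from -0.066 to 1.04 for Sirt5. The cause was not tested.

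With the longest transcript 10 ranks of level moved. In MOF cKO, lower calls with upper-quartile factors, library size alone and DESeq2 were 2, 3 and 1 for NAD synthesis, 5, 6 and 5 for zinc-dependent deacetylases, and 4, 8 and 5 for mitochondrial substrates. The NAD consumers had 2 lower calls with library size alone, and the nuclear and cytosolic substrates 3 with DESeq2 and 4 with library size alone. The higher calls of the zinc-dependent deacetylases fell to 0 with upper-quartile factors and library size alone, and those of the nuclear list to 1 with library size alone. The mitochondrial list had 2 higher calls with DESeq2 and RLE factors. With 2 libraries a group and 12 to 68 reads on Sirt5 at P0.5, counting limits what can be seen there.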
